A study of Apostichopus japonicus with 3 samples.

Results

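The comparison described here set the intestine of the sea cucumber Apostichopus japonicus in deep aestivation against the intestine outside aestivation. All isotigs, the assembled transcript sequences of this species, with a mean RPKM (reads scaled by isotig length and by the aligned reads of the library) of at least 1 over the 3 libraries were kept, which left 18352 of 20712. An isotig missing from a library's table was taken as 0 reads there. The kept isotig nearest the limit had a mean RPKM of 1.001, from 0 reads in non-aestivation and 1 during deep aestivation, and the nearest one left out had 0.9997, from 0 and 2 reads.

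Aestivation is the summer dormancy of sea cucumbers, in which the animal stops feeding and moving and its gut shrinks and thins. In dormant animals generally, protein synthesis, cell division and oxidative metabolism are costs that are known to be reduced, and stored lipid and protein are drawn on instead of food. The gut of echinoderms digests and absorbs food, and it also makes secreted proteins such as the major yolk protein.

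The series holds 3 libraries of polyadenylated RNA, 1 for each stage, all labelled intestine: non-aestivation (NA), deep aestivation (DA) and arousal (AA). The design text gives at least 15 individuals per stage, and no source used here says whether their RNA was pooled. No genotype, strain, age or agent is named for any group. Tables of non-aestivation and of arousal carry each other's code in their file names, so the labels decide which of them deep aestivation is set against here, and values of the library labelled arousal are given beside those of the other libraries.

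The non-aestivation library held 1.02 M uniquely aligned reads, that of deep aestivation 0.893 M and that of arousal 0.945 M. With 1 library per stage there was no spread between replicates to compare with, so differences are not tested and no p-value appears. An isotig is called higher or lower when its RPKM + 0.5 differed at least 2-fold between the libraries and the exact interval for the ratio of its read shares, drawn with an error rate of 0.001, excluded 1. Folds of single isotigs are ratios of read shares, with exact 95% intervals in parentheses, and where a library had 0 reads the fold is a bound that puts 3 reads there. Reads amplified by PCR and lacking molecular identifiers are not independent molecules, and these intervals and bounds therefore cover counting error only.

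Of the 18352 isotigs, 952 were higher in deep aestivation (5.19%), 745 were lower (4.06%) and 16655 were neither. The median log2 ratio over all of them was 0.16, with quartiles of -0.66 and 0.98. By size, 390 of the higher and 269 of the lower isotigs differed at least 4-fold, and 79 and 77 at least 16-fold. The higher isotigs together took 6.67% of the reads in non-aestivation and 25.5% during deep aestivation. The lower isotigs went from 19.3% to 6.79%. Scaling by the median ratio of isotigs in place of total reads shifted the median log2 ratio by -0.16 and gave 679 higher and 1050 lower, so the share of higher calls among all calls was 39.3% with that scaling and 56.1% here. Most isotigs were in both libraries (16316), while 975 had reads only in deep aestivation and 906 only in non-aestivation, and 155 had none in either. Of those found in 1 library alone, 51 and 46 were called.

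Calls depended on depth and on abundance. Among the 6112 isotigs with fewer than 10 reads over both libraries, 0 were called. The direction of the calls changed along the order of abundance: isotigs with 30 to 99 reads had 433 higher and 295 lower of 4344, and the 212 isotigs with at least 1000 reads had 25 higher and 63 lower, with a median log2 ratio of -0.73. Isotigs with a protein match (8962) were higher in 7.43% of cases and lower in 3.76%. Those without a match (9390) were higher in 3.05% and lower in 4.35%, and they were shorter (median length 638 bases against 990.5) with fewer reads (median 16 against 20). The part of length and depth in this difference was not tested.

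**Figure D1:**
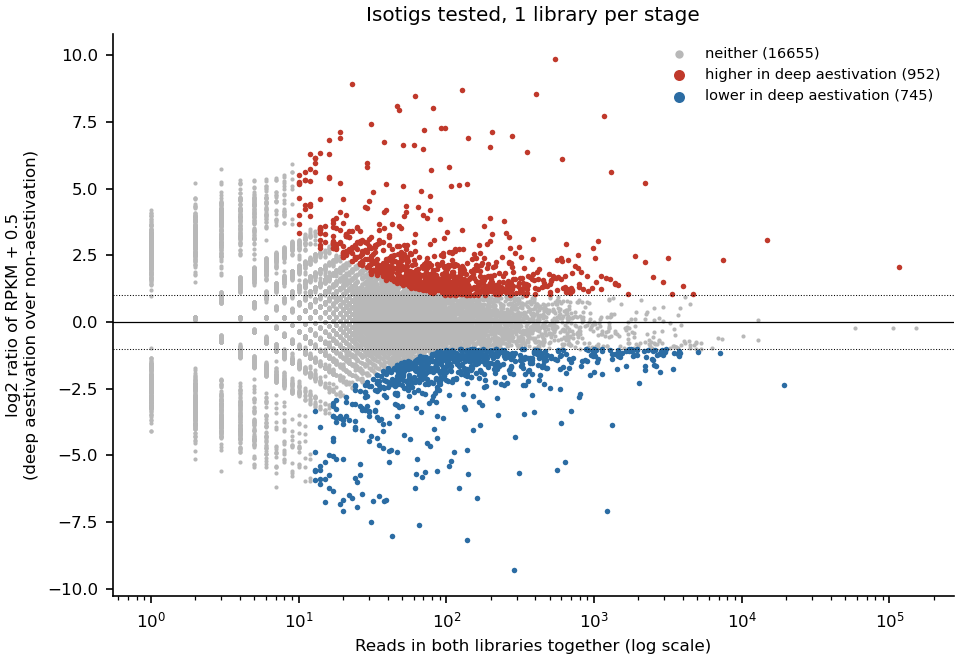
Each point is 1 of the 18352 isotigs, with the reads in both libraries together on a log x axis and the log2 ratio of RPKM + 0.5, deep aestivation over non-aestivation, on the y axis. Red points are the 952 called higher, blue the 745 called lower and grey those of the 16655 called neither that had reads (155 with none in either library are not drawn), and dotted lines mark 2-fold. Blue points outnumber red ones among the 212 isotigs with at least 1000 reads, 63 against 25.

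The tissue label was checked against marker words in the protein matches. The words also caught names beyond the intended markers. Examples are inter-alpha-trypsin inhibitor, methionine aminopeptidase and acid alpha glucosidase in the gut epithelium list, and a calponin-domain monoxygenase in the muscle list. The 61 gut epithelium matches took 2.01% of the reads in non-aestivation, 1.10% during deep aestivation and 6.15% at arousal, with trypsin, amylase, lipase, maltase, aminopeptidase, villin, cubilin and mucin matches all present and chymotrypsin at 0 isotigs. That fall came from 1 isotig, intestinal fatty acid binding protein 2 (isotig19264): without it the list took 0.392% of the non-aestivation reads and 0.786% of those of deep aestivation. Of the 61, 17 were higher and 3 lower, with a median of 0.70. The 36 muscle matches held 0.251%, 0.199% and 0.158% in the same order, or 0.173% and 0.171% in the first 2 libraries without a titin match (isotig13411), with 3 higher and 4 lower and paramyosin at 0. The 35 neuron matches held 0.0871%, 0.133% and 0.0976%, with 20 of them acetylcholinesterase matches that include all 6 called higher. The 27 coelomocyte matches held 0.201%, 0.237% and 0.159%, with amassin at 0. The 26 gonad matches held 26583, 94336 and 105566 reads, nearly all of them major yolk protein, and the germ cell markers vasa, nanos and piwi were at 0 isotigs. In these bulk libraries, fewer cells of a type and less RNA per cell cannot be told apart.

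Gene ontology (GO) terms were attached to 4573 of the isotigs kept, of which 335 were higher and 202 lower, with a median of 0.19. The groups spread out by function. Among the chosen groups with at least 20 isotigs, the lowest medians were those of ribosomal and mitochondrial respiration terms, and the highest were those of motor activity (1.42) and receptor activity (1.26), followed by kinases and signal transduction. The terms of protein synthesis and folding together (231 isotigs) had 6 higher and 46 lower with a median of -0.67. They took 10.5% of the non-aestivation reads, 5.74% of those of deep aestivation and 6.32% of those of arousal. The signalling terms together (255 isotigs) had 38 higher and 7 lower (14.9% and 2.75%) with a median of 0.83. Terms of transport and membranes (331) had 31 higher and 14 lower (9.37% and 4.23%), with a median of 0.59. Terms of energy metabolism (262) had 16 and 20 (6.11% and 7.63%), with a median of -0.14. Terms of the nucleus, genome and its regulation (344) had 24 and 16, with a median of 0.06, and their shares of 6.98% and 4.65% were near those over all isotigs.

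**Figure D2:**
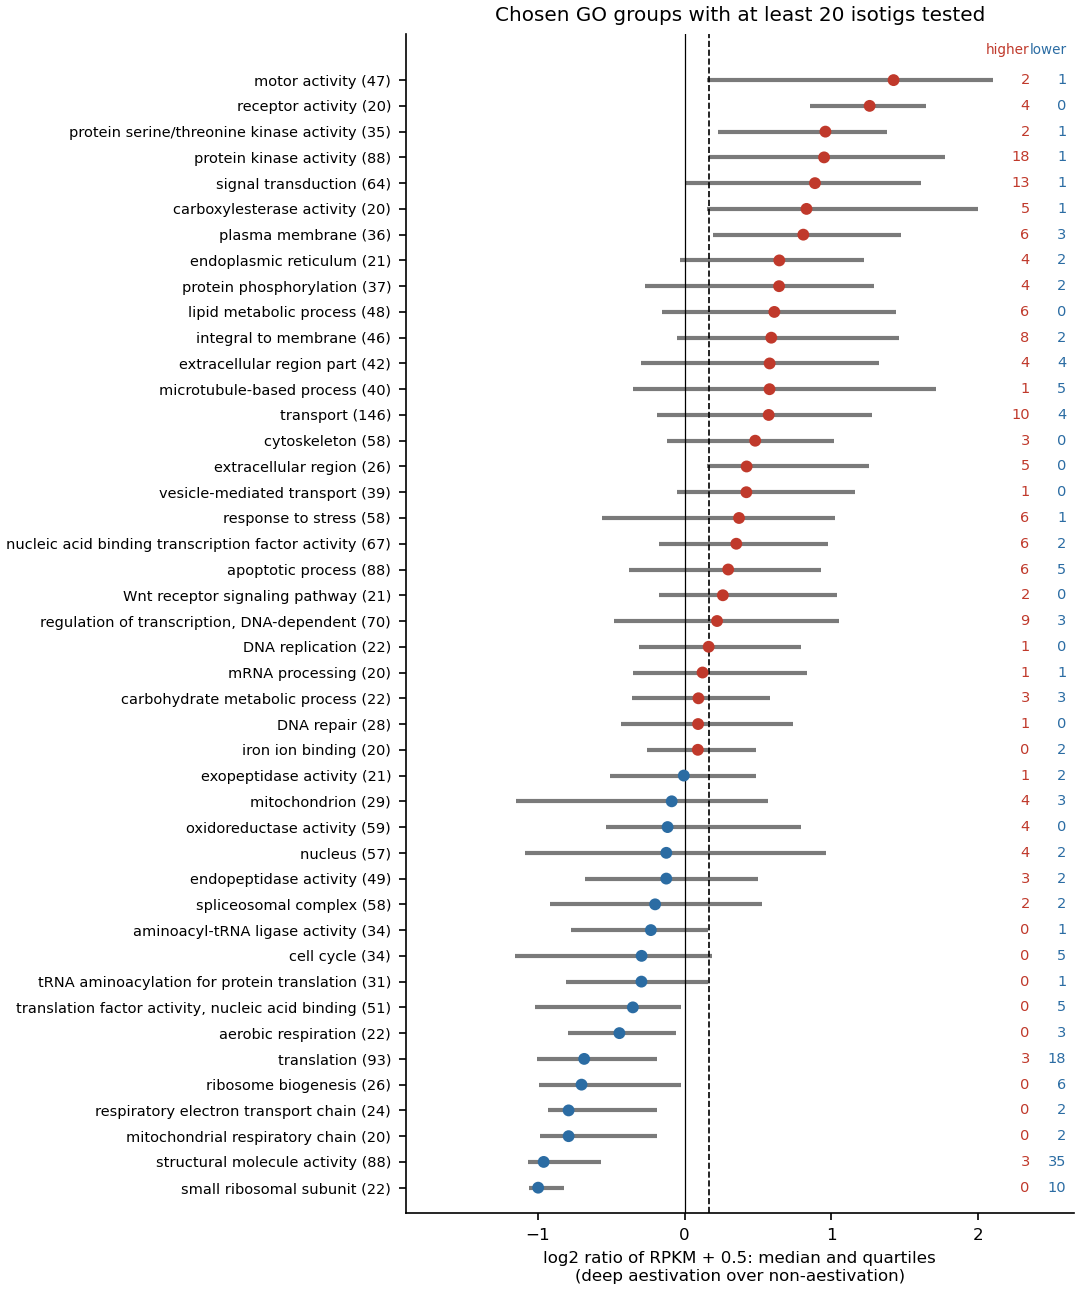
For each of the chosen GO groups with at least 20 isotigs tested (number in parentheses), the point is the median log2 ratio of RPKM + 0.5, deep aestivation over non-aestivation, and the bar runs from the first to the third quartile over isotigs, red above 0 and blue below. The dashed line is the median of all isotigs, 0.16, and the columns at the right count the isotigs called higher and lower. Of the groups drawn, small ribosomal subunit is lowest at -0.998 and motor activity highest at 1.42, and structural molecule activity has the most lower calls, 35 of 88.

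Ribosomal proteins of the GO groups gave many lower calls. Ribosomes are built from a large and a small subunit, and the GO term structural molecule activity collects most of their proteins. It held 9.14% of the reads in non-aestivation, 4.76% during deep aestivation and 4.97% at arousal. Of its 88 isotigs, 3 were higher and 35 lower, with a median of -0.96. Its 59 members with a ribosomal name had 0 higher and 28 lower (median -0.997), and the 29 others had 3 and 7 (median -0.74). Because so many of these isotigs lay close to 2-fold, the count of lower members moved with the scaling while the direction did not: it was 52 with median-ratio scaling, 44 with upper-quartile scaling and 17 when the 20 most abundant isotigs were left out of the total. The large subunit had 0 higher and 8 lower of 16, and the small subunit 0 and 10 of 22.

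Among single ribosomal proteins, 60S ribosomal protein L13 (isotig20778) had 5077 reads in non-aestivation, 2006 during deep aestivation and 2388 at arousal. It was 2.21-fold lower in deep aestivation (2.10 to 2.33). The 40S protein S20 (isotig25821), with 2770, 1012 and 1254 reads, was 2.39-fold lower (2.22 to 2.57), and S11 (isotig23505), with 1998, 751 and 1067 reads, was 2.32-fold lower (2.14 to 2.53). A further 3 abundant members lay just inside 2-fold and were not called: L6 (isotig19317) at 2.00-fold lower (1.88 to 2.12), L7a (isotig18826) at 1.97-fold (1.87 to 2.08) and a match to v-fos transformation effector, another name of ribosomal protein S3a (isotig18530), at 2.00-fold (1.88 to 2.12). All of these stood at a similar level in deep aestivation and arousal and higher in non-aestivation. An isotig matching L10e/P0, the base of the ribosomal stalk (isotig10296), differed from them, with 121 reads in non-aestivation, 1 during deep aestivation and 100 at arousal (106-fold lower, 18.6 to 4207). Reads covered only 21.8% of its length in non-aestivation and 5.23% during deep aestivation, against 97.0% and 97.4% for L13, so its fold rests on part of the isotig.

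Other terms of protein synthesis gave fewer lower calls. The term translation, which also holds ribosomal proteins such as L13 (isotig20778), had 3 higher and 18 lower of 93, with a median of -0.68. Translation factors had 0 higher and 5 lower of 51 (median -0.35), and the alpha subunit of initiation factor 2, which brings the first tRNA to the ribosome (isotig13377), had 161 reads in non-aestivation, 62 during deep aestivation and 95 at arousal (2.27-fold lower, 1.68 to 3.09). Enzymes that load amino acids onto tRNA had 0 higher and 1 lower of 34 (median -0.23), below the 4.06% lower over all isotigs. They took 0.249% of the non-aestivation reads, 0.262% of those of deep aestivation and 0.490% of those of arousal. Most of these reads lay in isotig13356, and without it the shares of non-aestivation and deep aestivation were 0.0709% and 0.0497%. The 1 called lower was the beta chain of phenylalanyl-tRNA synthetase (isotig06913), with 41, 6 and 20 reads (5.97-fold lower, 2.52 to 17.2). Ribosome biogenesis had 0 higher and 6 lower of 26 (median -0.70), among them Bop1, which acts in maturation of the large subunit (isotig13552; 105, 39 and 68 reads; named after its values were seen). Protein folding stood apart from these, with 0 of 13 isotigs called and a median of 0.37.

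Mitochondrial respiration and the breakdown of sugar were low by their medians, though most members were not called. The respiratory electron transport chain had 0 higher and 2 lower of 24 (8.33% lower, against 4.06% over all isotigs), with a median of -0.79. Both were subunits of NADH dehydrogenase, the entry complex of the chain: flavoprotein 2 (isotig14970; 103, 41 and 100 reads in non-aestivation, deep aestivation and arousal; 2.19-fold lower, 1.51 to 3.23) and iron-sulfur protein 4 (isotig11245; 89, 37 and 88 reads; named after its values were seen). Cytochrome c oxidase subunit IV (isotig18618), of the complex that passes electrons to oxygen, had 797, 269 and 667 reads and was 2.59-fold lower (2.25 to 2.98). Cytochrome c (isotig17336), the mobile carrier that feeds it, had 221, 70 and 235 reads (2.76-fold lower, 2.10 to 3.66). A subunit of the membrane part of ATP synthase (isotig07844) had 488, 133 and 469 reads (3.20-fold lower, 2.64 to 3.91), while F0 subunit 6 (isotig12529), with 6376, 3843 and 4214 reads, was only 1.45-fold lower (1.39 to 1.51) and was not called. Apart from F0 subunit 6, the reads of these isotigs in arousal were close to those in non-aestivation, and deep aestivation was the low library.

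Aerobic respiration, which here takes in the citrate cycle, had 0 higher and 3 lower of 22 (13.6% lower, against 4.06% over all isotigs). Its median was -0.44. Malate dehydrogenase (isotig16250), which closes the cycle, had 285 reads in non-aestivation, 85 during deep aestivation and 290 at arousal (2.93-fold lower, 2.29 to 3.78). Citrate synthase (isotig15148), which opens it, had 142, 57 and 212 reads (2.18-fold lower, 1.59 to 3.01), and was named after its values were seen, as was cytosolic malate dehydrogenase (isotig18460; 253, 89 and 422 reads). Glucose catabolic process had 0 higher and 3 lower of 16 (18.8% lower), with a median of -0.70. The beta subunit of pyruvate dehydrogenase (isotig07276), the link between glycolysis and the cycle, had 37, 6 and 38 reads (5.38-fold lower, 2.25 to 15.6). The lowest median of any function term with at least 20 isotigs was that of the dehydrogenases acting on CH-OH groups, -1.01, with 2 higher and 6 lower of 28. Its called member with the most reads was glycerol-3-phosphate dehydrogenase 1 (isotig13134), which ties sugar breakdown to glycerolipids, with 359, 68 and 744 reads (4.61-fold lower, 3.55 to 6.07).

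Fat handling went in opposite directions in different genes. The term lipid metabolic process had 6 higher and 0 lower of 48 (12.5% higher, against 5.19% over all isotigs), with a median of 0.61. It took 0.316% of the non-aestivation reads, 1.65% of those of deep aestivation and 1.18% of those of arousal. Nearly all of the gain in deep aestivation lay in apolipoprotein B (isotig13070), the large structural protein of lipoprotein particles. Without it the shares of non-aestivation and deep aestivation were 0.143% and 0.189%. Fatty acid beta-oxidation had 1 higher and 1 lower of 13, and both matched long-chain acyl-CoA dehydrogenase, which carries out the first oxidation step on long fatty acids. Of these, isotig13249 had 28 reads in non-aestivation, 1272 during deep aestivation and 277 at arousal (52.0-fold higher, 35.8 to 78.6), and isotig14354 had 39, 9 and 92 (3.78-fold lower, 1.80 to 8.88). Over the length of isotig13249, reads covered 32.6% in non-aestivation and 98.2% during deep aestivation. Later enzymes of the same pathway were lower: the alpha part of the trifunctional hydroxyacyl-CoA dehydrogenase (isotig06387) had 187, 55 and 200 reads (2.97-fold lower, 2.19 to 4.09) and its subunit B (isotig17534) had 138, 46 and 173 (2.62-fold lower, 1.86 to 3.74).

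Several genes that break down or take up lipid were higher. Pancreatic triacylglycerol lipase (isotig14718), which cuts dietary fat, had 9 reads in non-aestivation, 594 during deep aestivation and 11 at arousal (75.6-fold higher, 39.5 to 166). Glycerol kinase (isotig23904), which returns free glycerol to metabolism, had 34, 112 and 32 reads (3.77-fold higher, 2.55 to 5.71). A low-density lipoprotein receptor match (isotig23101), of the receptors that take up lipoproteins, had 114, 237 and 14 reads (2.38-fold higher, 1.90 to 3.00). The deep aestivation library was the highest of the 3 for each of these. A Niemann-Pick C match (isotig15977), of proteins that move cholesterol out of lysosomes, had 102, 243 and 368 reads (2.73-fold higher, 2.16 to 3.47). Carboxylesterases had 5 higher and 1 lower of 20 (25% and 5%, against 5.19% and 4.06% over all isotigs). The term is not limited to lipid enzymes. It takes in an acetylcholinesterase match, named after its values were seen (isotig17002; 11, 36 and 19 reads). The higher member with the most reads was a phospholipase A2-like match named enhancing factor (isotig18150), with 106, 496 and 491 reads (5.36-fold higher, 4.34 to 6.67). The intracellular carrier of fatty acids in gut cells went the other way, and it was the largest single loss of reads with a protein name: intestinal fatty acid binding protein 2 (isotig19264) had 16574 reads in non-aestivation, 2849 during deep aestivation and 51380 at arousal (5.08-fold lower, 4.88 to 5.29).

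Digestive enzymes were among the isotigs with the largest folds in both directions, while the GO terms of digestion as a whole gave few calls. The terms of digestion and hydrolysis together (197 isotigs) had 17 higher and 10 lower (8.63% and 5.08%, against 5.19% and 4.06% over all isotigs), with a median of 0.27. Endopeptidase activity had 3 higher and 2 lower of 49, exopeptidase activity 1 and 2 of 21, and proteolysis 0 and 1 of 14. Of the 12 named isotigs whose interval lay farthest above 1, 6 matched digestive enzymes of protein, starch or fat, and 5 of the 12 had 0 reads in non-aestivation. Preamylase 1 (isotig14872) and alpha-amylase (isotig16864), which cut starch, had 0 reads each in non-aestivation, 98 and 71 during deep aestivation and 2 and 4 at arousal (at least 37.4-fold and at least 27.1-fold higher). Other alpha-amylase matches had few reads, leaned the other way and were not called. Of these, isotig10221 had 9, 3 and 13 reads in the same order and isotig10222 had 4, 0 and 0. Aminopeptidase N (isotig05199), which trims peptides at the gut surface, had 1, 103 and 23 reads (118-fold, 20.7 to 4704), with reads over 15.7% of its length in deep aestivation. Other isotigs with the same match had reads in non-aestivation. Isotig05197 had 49, 109 and 79 reads and was called higher, and isotig05198 had 28, 11 and 5 and was not called. The fold of isotig05199 is therefore not that of all isotigs with this match. A match to growth factor receptor 2 variant b (isotig06516), a cell surface receptor, had 4, 349 and 216 reads (99.92-fold, 38.7 to 369). Isotig14872, isotig16864, isotig05199 and isotig06516 were near 0 in non-aestivation. In arousal isotig14872 and isotig16864 were again near 0 while the growth factor receptor match was not.

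Matches to proprotein convertase subtilisin/kexin type 9, which in mammals sends low-density lipoprotein receptors to be broken down, held 4 of these 12 places. Isotig15359 had 0 reads in non-aestivation, 547 during deep aestivation and 12 at arousal (at least 209-fold higher), and isotig15283 had 1, 203 and 51 (233-fold, 41.3 to 9227). The others, isotig07647 and isotig07395, had 92 and 69 reads in deep aestivation and 0 in both other libraries (at least 35.1-fold and at least 26.3-fold higher). The trypsin-like serine proteases isotig21645 (6, 1169 and 12 reads) and isotig26752 (1, 405 and 4 reads) completed the 12.

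**Figure D3:**
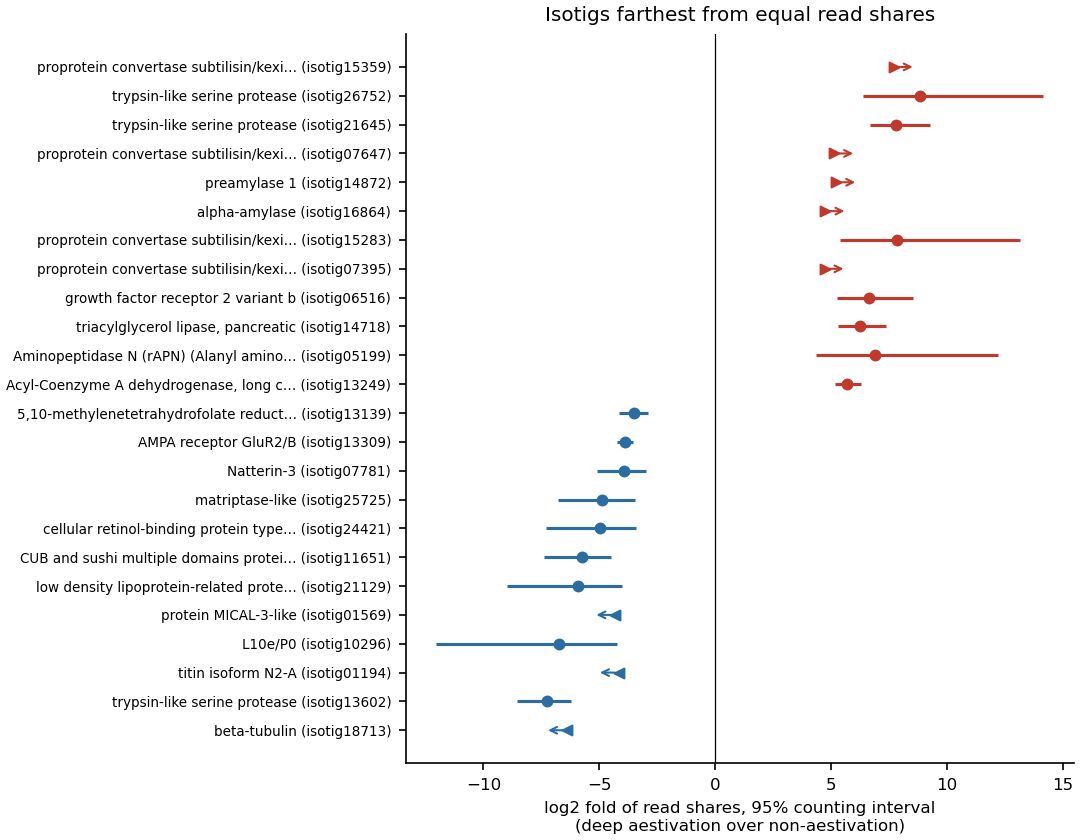
For the 12 named isotigs farthest above and the 12 farthest below equal read shares, the point is the log2 fold of read shares, deep aestivation over non-aestivation, and the bar its exact 95% counting interval. Triangles with arrows mark bounds where 1 library had 0 reads. The highest points are trypsin-like and subtilisin/kexin type 9 matches, and the lowest are a trypsin-like match (isotig13602) at 152-fold lower and L10e/P0 (isotig10296) at 106-fold lower.

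The 12 named isotigs farthest below 1 were of mixed kinds. A match to the AMPA receptor subunit GluR2/B, a glutamate-gated ion channel (isotig13309), had 1245 reads in non-aestivation, 74 during deep aestivation and 5 at arousal (14.7-fold lower, 11.6 to 18.8). A CUB and sushi domain match, of a family of cell surface proteins (isotig11651), had 306, 5 and 1 reads (53.4-fold lower, 22.7 to 166). Low density lipoprotein-related protein 1B (isotig21129), an endocytic receptor, had 138, 2 and 0 reads (60.3-fold lower, 16.4 to 503), and matriptase, a membrane-bound serine protease (isotig25725), had 134, 4 and 0 reads (29.3-fold lower, 11.2 to 109). These 4 were low in arousal as well, so the library labelled non-aestivation stood alone.

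Another set was low in deep aestivation alone. Methylenetetrahydrofolate reductase (isotig13139), which makes the folate used to methylate homocysteine, had 312 reads in non-aestivation, 24 during deep aestivation and 918 at arousal (11.4-fold lower, 7.49 to 18.0). Cellular retinol-binding protein type 1b (isotig24421), a carrier of vitamin A, had 109, 3 and 93 reads (31.7-fold lower, 10.6 to 156), and Natterin-3 (isotig07781), named for a fish venom protein, had 159, 9 and 86 reads (15.4-fold lower, 7.92 to 34.4). The rest were trypsin-like isotig13602 (1220, 7 and 27 reads), the L10e/P0 isotig given above, MICAL-3 (isotig01569; 68, 0 and 0 reads), titin (isotig01194; 61, 0 and 15 reads) and a beta-tubulin (isotig18713; 288, 0 and 0 reads). The best match of this beta-tubulin was in the ciliate Chilodonella uncinata, and whether the transcript belongs to the sea cucumber was not tested. Reads covered 15.7% to 99.4% of the length of the 12 highest isotigs in deep aestivation (median 87.5%) and 18.7% to 98.6% of the 12 lowest in non-aestivation (median 77.3%).

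By share of all reads, a small number of secreted and storage proteins held much of the gain. Isotigs with a larger share in deep aestivation gained 27.5 percentage points of the reads together. The 10 isotigs with the largest gains, with or without a protein name, held 10.8 of them. Major yolk protein 1 (isotig13120), an iron-binding storage protein of echinoderms, had 25032 reads in non-aestivation, 90687 during deep aestivation and 101055 at arousal, and gained 7.71 points, from 2.45% to 10.2% (4.15-fold, 4.09 to 4.21). Apolipoprotein B (isotig13070), with 1773, 13091 and 8906 reads, went from 0.173% to 1.47% (8.46-fold, 8.05 to 8.89). Both were high in deep aestivation and in arousal and low in non-aestivation. Major yolk protein 2 (isotig03531) also gained, with 661, 1846 and 1708 reads, but its reads covered 1.75% of the isotig's length in both libraries compared.

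Further gains differed in what the arousal library showed. Betaine-homocysteine S-methyltransferase 1 (isotig13345), which remakes methionine with methyl groups from betaine, had 557 reads in non-aestivation, 2594 during deep aestivation and 36 at arousal (5.33-fold, 4.87 to 5.86). Angiopoietin-like 7 (isotig15025), a secreted protein with a fibrinogen-like domain, had 1669, 3034 and 438 reads (2.08-fold, 1.96 to 2.21), and a C-type lectin precursor (isotig15031), of a family of sugar-binding proteins, had 836, 2076 and 631 (2.84-fold, 2.62 to 3.09). Deep aestivation was the highest library for these, whereas maltase 1 (isotig13364), which cuts maltose to glucose, had 434, 1792 and 1580 reads (4.73-fold, 4.26 to 5.26) and was high in arousal as well. Complement factor H (isotig13170), a brake on complement, had 1544, 2593 and 1851 reads (1.92-fold, 1.81 to 2.05) and was not called.

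The 10 isotigs with the largest losses, with or without a protein name, gave up 5.10 points in all. Of the 10 named isotigs with the largest losses, the fatty acid binding protein (isotig19264) lost the most, 1.30 points. Ribosomal proteins made up 6 of these 10 named isotigs. The others were ATP synthase F0 subunit 6, actophorin and calmodulin 2. Actophorin (isotig13239), a protein that cuts actin filaments, had 4672 reads in non-aestivation, 2660 during deep aestivation and 4421 at arousal (1.53-fold lower, 1.46 to 1.61) and was not called. Calmodulin 2 (isotig14914), the calcium sensor, had 2769, 1075 and 1882 reads (2.25-fold lower, 2.10 to 2.42).

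**Figure D4:**
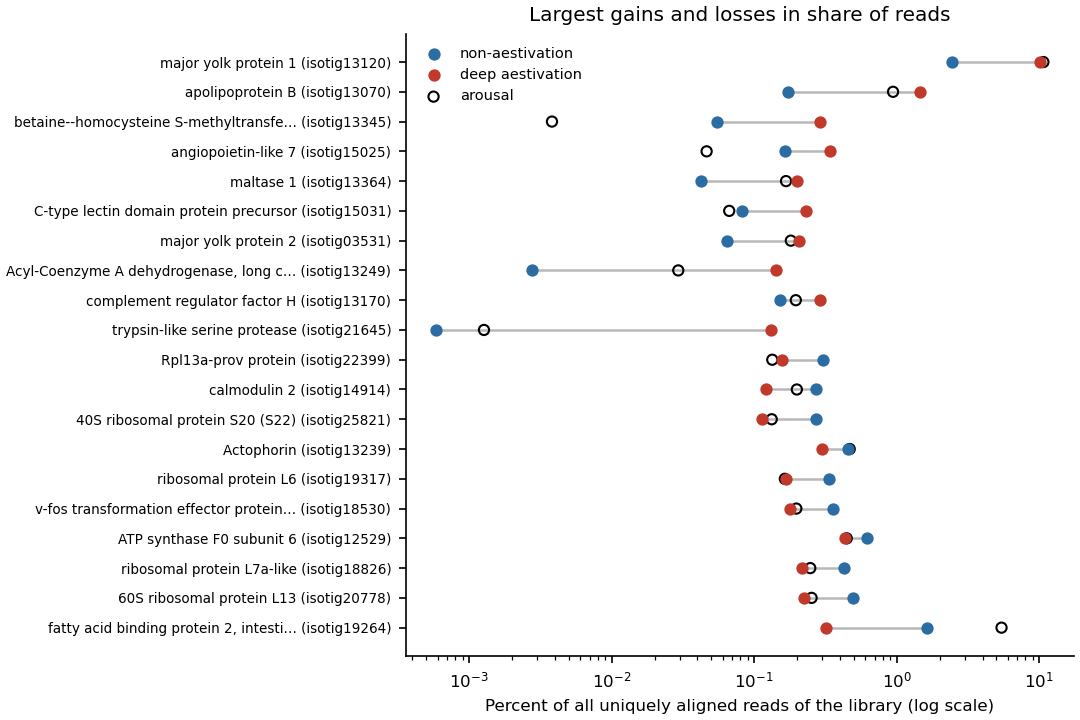
For the 10 named isotigs with the largest gain and the 10 with the largest loss in share of reads, points give the percent of all uniquely aligned reads on a log axis in the non-aestivation (blue), deep aestivation (red) and arousal (open) libraries. Major yolk protein 1 lies at 10.2% in deep aestivation against 2.45% in non-aestivation, and intestinal fatty acid binding protein 2 at 0.319% against 1.62%.

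Of the 9 families of GO terms, signalling had the largest share of isotigs called higher, 14.9%. Protein kinases pass signals by adding phosphate to other proteins, and the term protein kinase activity had 18 higher and 1 lower of 88 isotigs, with a median of 0.95, and 71 of the 88 lay above 0. Over all isotigs 5.19% were higher. The kinase isotigs were of ordinary depth, with a median of 20 reads over both libraries against 18 over all isotigs tested. The count of higher members was 14 with median-ratio or upper-quartile scaling and 22 with the 20 most abundant isotigs left out of the total. The median was 0.90 when members with an empty library took their bound.

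MAPKAPK-4 (isotig19194), of kinases switched on by stress-activated MAP kinases, had 41 reads in non-aestivation, 98 during deep aestivation and 71 at arousal (2.74-fold higher, 1.88 to 4.04). The single lower member was a match named only oncoprotein (isotig10259), with 926, 212 and 543 reads (3.81-fold lower, 3.28 to 4.45). It held more reads over both libraries than any other member, and without it the group held 0.140% of non-aestivation reads and 0.280% of those of deep aestivation.

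Further higher kinases were named after their values were seen. At the cell surface, a Src-type tyrosine kinase, which relays adhesion and growth signals (isotig18560), had 18 reads in non-aestivation, 71 during deep aestivation and 74 at arousal (4.52-fold, 2.66 to 8.05), and focal adhesion kinase, its partner at contacts with the matrix (isotig16166), had 4, 21 and 5 (6.01-fold, 2.03 to 24.1). In the MAP kinase cascade, B-raf (isotig17691) had 8, 26 and 21 reads (3.72-fold, 1.64 to 9.51) and a MAP kinase kinase kinase (isotig23279) had 8, 31 and 22 (4.44-fold, 2.00 to 11.2). TAO1 (isotig18822), which feeds the stress-activated branch, had 1, 20 and 17 reads (22.9-fold, 3.66 to 949). Non-aestivation was the low library for these, except that focal adhesion kinase was about as low in arousal, and the wide intervals follow from the few reads.

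Kinases of nutrient and protein stress were among them. Unc-51-like kinase 1 (isotig13589), which starts autophagy when nutrients are short, had 2 reads in non-aestivation, 33 during deep aestivation and 11 at arousal (18.9-fold, 4.83 to 163). PERK (isotig18108), which slows translation when unfolded protein builds up in the endoplasmic reticulum, had 17, 40 and 32 reads (2.70-fold, 1.49 to 5.07). Krs-2 (isotig18354), a match to the kinases that head the Hippo cascade, had 21, 55 and 38 reads (3.00-fold, 1.79 to 5.22). These 3 isotigs were named after their values were seen.

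**Figure D5:**
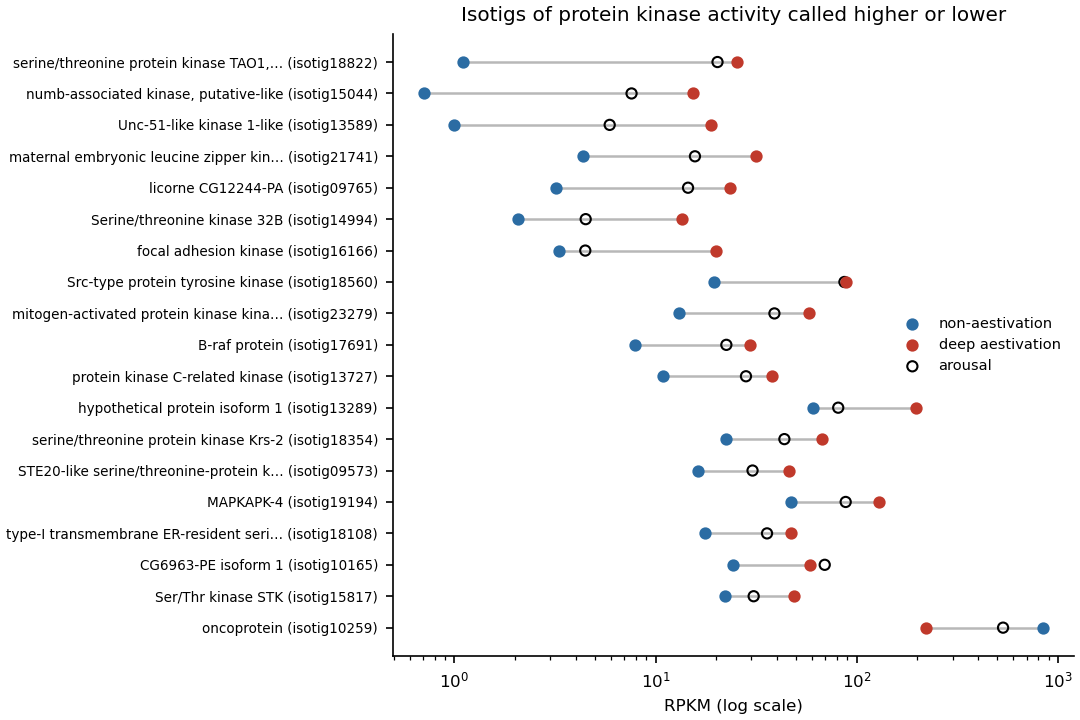
RPKM on a log axis in the non-aestivation (blue), deep aestivation (red) and arousal (open) libraries for the 19 isotigs of protein kinase activity that were called. Deep aestivation lies above non-aestivation in 18 of them and below it in 1, the match named oncoprotein.

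Signal transduction as a process had 13 higher and 1 lower of 64 (20.3% and 1.56%, against 5.19% and 4.06% over all isotigs). Its median was 0.89, and 8 isotigs were in it and also in a kinase group. Enzymes of phosphoinositides, membrane lipids that carry signals, were among the higher members and were named after their values were seen. The beta catalytic subunit of phosphoinositide-3-kinase had 23 reads in non-aestivation, 60 during deep aestivation and 39 at arousal in isotig14257 (2.99-fold, 1.82 to 5.06) and 16, 62 and 53 in isotig14736 (4.44-fold, 2.53 to 8.24). The phosphatase that removes its product, SHIP2-like (isotig15715), had 10, 45 and 27 reads (5.15-fold, 2.56 to 11.5). Phospholipase C-gamma (isotig22456) had 1, 17 and 6 (19.5-fold, 3.05 to 814), and the inositol trisphosphate receptor, which releases calcium in answer to it (isotig18001), had 3, 19 and 15 (7.25-fold, 2.14 to 38.3). Both the kinase and the phosphatase of this lipid were thus higher. The branched-chain ketoacid dehydrogenase kinase (isotig13911), which switches off the breakdown of branched-chain amino acids, had 86, 185 and 276 reads (2.46-fold, 1.90 to 3.22). Receptor activity had 4 higher and 0 lower of 20 (20% higher), with a median of 1.26.

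Terms of transport had medians above 0 but few calls. The process transport, which also takes in carriers such as apolipoprotein B, had 10 higher and 4 lower of 146 (6.85% and 2.74%, against 5.19% and 4.06% over all isotigs), with a median of 0.57. Transporter activity had 0 higher and 1 lower of 12 (median 0.57), ion transport 0 and 2 of 16 (median 0.92) and ion channel activity 0 of 8 called. The members named here were picked with their values in view. A solute carrier of family 5, which includes the sodium-dependent vitamin transporter (isotig16483), had 41 reads in non-aestivation, 197 during deep aestivation and 24 at arousal (5.50-fold, 3.91 to 7.90). Atb0+ (isotig13667), an amino acid transporter, had 171, 538 and 311 reads (3.60-fold, 3.03 to 4.31), and scavenger receptor class B type I (isotig17642), which takes up lipid from lipoproteins, had 15, 80 and 12 (6.11-fold, 3.49 to 11.4). The cystine/glutamate exchanger (isotig15733) was lower, with 23, 1 and 0 reads (20.1-fold lower, 3.26 to 827). Plasma membrane had 6 higher and 3 lower of 36 (median 0.81), and Golgi apparatus 1 higher of 9.

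Outside the cell, extracellular region had 5 higher and 0 lower of 26 (median 0.42), and extracellular region part had 4 and 4 of 42 (median 0.58), against 5.19% higher and 4.06% lower over all isotigs. Fibropellin Ia (isotig07654), a protein of the outer matrix of sea urchin embryos, had 603 reads in non-aestivation, 1103 during deep aestivation and 248 at arousal (2.10-fold, 1.90 to 2.32). An inhibitor of matrix metalloproteinases, TIMP (isotig15867), had 41, 114 and 22 reads (3.18-fold, 2.21 to 4.67) and was named after its values were seen. Cell adhesion had 2 higher and 0 lower of 17 (median 0.95), with an ADAM metalloproteinase that sheds surface proteins (isotig13190) at 134, 393 and 273 reads (3.36-fold, 2.75 to 4.12). Carbohydrate binding had 3 higher and 0 lower of 9, and it is not limited to proteins outside the cell. Its higher member with the most reads was the enzyme glutamine fructose-6-phosphate transaminase 1 (isotig13230; 56, 121 and 259 reads). Defense response had 1 higher and 1 lower of 16. The lower one matched a protein of the aminoacyl-tRNA synthetase complex (isotig21224; 36, 6 and 23 reads). Response to stress had 6 higher and 1 lower of 58 (median 0.37), and apoptotic process 6 and 5 of 88 (median 0.30).

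Groups of the nucleus were split. Regulation of transcription had 9 higher and 3 lower of 70 (12.9% and 4.29%, against 5.19% and 4.06% over all isotigs), with a median of 0.22. A match to retinoic acid receptor beta-2 (isotig13508), a nuclear receptor for a vitamin A product, had 114 reads in non-aestivation, 496 during deep aestivation and 120 at arousal (4.98-fold, 4.06 to 6.16). Creb3L3 (isotig20791), a membrane-bound transcription factor of the endoplasmic reticulum that in mammals acts in liver and gut, had 198, 422 and 224 reads (2.44-fold, 2.06 to 2.91), and activating transcription factor 5 (isotig14003), a factor of stress responses, had 1194, 2182 and 994 (2.09-fold, 1.95 to 2.25). CREB-binding protein (isotig14239), a histone acetyltransferase, had 18, 63 and 50 reads (4.01-fold, 2.34 to 7.19). For the first 3 of these, arousal stood near non-aestivation and deep aestivation was the high library.

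The lower members of these groups included genes of dividing cells. Cell cycle had 0 higher and 5 lower of 34 (14.7% lower, against 4.06% over all isotigs), with a median of -0.29. Of these 5, 2 were ribosomal proteins. Cell division cycle 2 (isotig13456), the kinase that drives entry into mitosis and is counted under serine/threonine kinases, had 157 reads in non-aestivation, 57 during deep aestivation and 164 at arousal (2.41-fold lower, 1.77 to 3.32). Its partner cyclin B (isotig14051) had 66, 19 and 64 (3.03-fold lower, 1.80 to 5.35), and E2F transcription factor 3 (isotig14576), which turns on genes of DNA synthesis, had 79, 17 and 35 (4.06-fold lower, 2.38 to 7.31); both were named after their values were seen. The histone variant 2A.Z (isotig15595) had 1030, 417 and 660 reads (2.16-fold lower, 1.92 to 2.42). DNA replication had 1 higher and 0 lower of 22 (median 0.16) and DNA repair 1 and 0 of 28 (median 0.09), so these terms lay at the median of all isotigs.

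The cytoskeleton gave few calls. Its terms together (144 isotigs) were higher in 3.47% and lower in 4.17%, against 5.19% and 4.06% over all isotigs. Motor activity had the highest median of the groups described, 1.42, but 2 higher and 1 lower of 47, and its median was 0.59 when members with an empty library took their bound. Microtubule-based process had 1 higher and 5 lower of 40 (2.5% and 12.5%). Its lowest member was the beta-tubulin isotig18713 given above, whose best match was in a ciliate and whose origin was not tested. A tubulin beta chain (isotig13326), a building block of microtubules, had 1537 reads in non-aestivation, 637 during deep aestivation and 1114 at arousal (2.11-fold lower, 1.92 to 2.31). Spectrin beta 2 (isotig09523), of the mesh under the cell membrane, had 94, 331 and 145 reads (4.03-fold, 3.20 to 5.13). Protein breakdown was also mostly uncalled: the proteasome complex had 0 higher and 1 lower of 9, with a median of -1.25 that became -0.54 with those at 0 reads put at their bound, and lysosome had 0 of 16 called (median 0.52).

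Of the 15 GO terms with the lowest medians, 5 each of process, function and component with at least 20 isotigs, 4 were mostly ribosomal by name and 6 held no ribosomal name. Those 6 were terms of mitochondria and respiration, the CH-OH dehydrogenases and the translation factors. The lowest process terms with at least 20 isotigs included pancreas development (median -0.87), of which 28 of 43 isotigs were ribosomal by name, and gene expression (-0.74), with 26 of 75. The highest process term was cell growth (0.98), with 5 higher and 0 lower of 22, among them an isotig of protein kinase C (isotig23239; 12, 47 and 27 reads) and, named after its values were seen, the transcription factor Sox17-alpha, which in vertebrates directs endoderm (isotig13607), with 323 reads in non-aestivation, 889 during deep aestivation and 458 at arousal (3.15-fold, 2.77 to 3.59). The order of terms was read from the values and is a description.

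Isotigs with the same best protein match mostly went the same way, with exceptions in digestion and vitamin handling. Of 1165 best matches with at least 2 isotigs tested, 82 had at least 2 isotigs called, 74 in 1 direction and 8 in both. Membrane alanine aminopeptidase (isotig16462 and isotig15581) had 196 and 324 reads in non-aestivation, 625 and 93 during deep aestivation and 730 and 581 at arousal (3.65-fold higher, 3.11 to 4.31, and 3.04-fold lower, 2.41 to 3.87). The receptor for intrinsic factor and vitamin B12 (isotig14663 and isotig08645) had 30 and 98, 86 and 22, and 17 and 33 reads (3.28-fold higher, 2.14 to 5.16, and 3.89-fold lower, 2.43 to 6.49). Fibrinogen-like protein A, an echinoderm protein of the fibrinogen-related family, had 2 higher and 2 lower of 17 isotigs. The highest was isotig21859, with 124, 327 and 33 reads (3.02-fold, 2.45 to 3.74), and isotig19241 had 166, 43 and 23 (3.37-fold lower, 2.40 to 4.83). Cellular retinol-binding protein type 1b had 1 higher and 3 lower of 6 isotigs, of which isotig10933 had the most reads, 512, 78 and 113 (5.73-fold lower, 4.51 to 7.37). Trypsin-like protease and long-chain acyl-CoA dehydrogenase, given above, were also in this set. Since only uniquely aligned reads were counted, reads of near-identical isotigs can be lost or split between them, so each isotig of such a set is uncertain by itself.

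Against the library labelled arousal, with the same rule, 975 isotigs were higher in deep aestivation (5.31%) and 619 lower (3.37%). Both comparisons share the deep aestivation library. Because the file name codes of the other libraries are crossed, the reads in arousal given beside each isotig show what would change if the names and not the labels were right. For ribosomal protein L13 (isotig20778) the 5077 reads set against 2006 would be 2388, and for apolipoprotein B (isotig13070) the 1773 reads set against 13091 would be 8906. For the lipase isotig14718 and the amylases isotig14872 and isotig16864, both other libraries held 11 reads or fewer. Malate dehydrogenase (isotig16250) and cytochrome c (isotig17336) had 285 and 221 reads in non-aestivation and 290 and 235 in arousal, and the receptor match isotig13508 had 114 and 120, so for these the direction does not depend on which library was non-aestivation.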

How the data were processed

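Messenger RNA of the intestine was sequenced in 3 libraries, 1 per stage. Per the labels' protocols, RNA was treated with DNase, enriched with oligo(dT) beads, fragmented, primed with random hexamers and PCR-amplified. CASAVA 1.5 was used, per the submitters' processing notes. No aligner, assembler or read length is named in the sources used here. As for the values, per the file headers the deposited tables give for each isotig the count of uniquely aligned reads, the authors' RPKM, the percent of its length covered, GO terms and the best protein match. No table of genome coordinates or isotig sequence was used, so names come from the protein matches.

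From these, RPKM was recomputed and equalled the deposited RPKM with relative differences of at most 4.96e-15. The log2 ratio of RPKM + 0.5 was taken wherever the mean RPKM reached 1, which shrinks ratios of shallow isotigs. Intervals of the ratio of read shares were exact conditional binomial (Clopper-Pearson) at 95% and, for calls, at an error rate of 0.001, and bounds used a floor of 3 reads. With 1 library per stage the depth sets the precision: isotigs with fewer than 10 reads over both libraries could not be called. The calculation was tested on simulated data. Python 3.11.15, numpy 2.4.6, pandas 2.3.3, scipy 1.17.1 and matplotlib 3.10.9 were used.

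GO groups were 94 topics, of which 62 had at least 5 isotigs, and 21 coarser terms, added after the term names in the tables had been read. Named isotigs had an informative protein match and were the 12 called in each direction with the interval farthest from 1, the 10 largest gains and losses in read share, in each GO group the called member with the most reads in each direction, and the isotigs of the 6 matches with the most reads called in both directions. The members, lists and rules were chosen with earlier results of these data known. Alternatives were other scalings, pseudocounts, filters, call rules and summing isotigs with 1 best match; keeping only isotigs with a protein match was chosen after seeing the data.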

Additional observations from a re-analysis of the deposited data

How the results depend on the processing

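The number of isotigs higher in deep aestivation, 952, and the number lower, 745, stayed within 1.5 times under the other scalings, pseudocounts of 0.1 and 1, the filters on RPKM or reads, a fold of at least 1.5 and summing by best match. They were 390 and 269 at 4-fold or more, 2071 and 1429 with a 95% interval, and 4502 and 3247 at 2-fold alone; 337 were lower among isotigs with a protein match only, a setting chosen after seeing the data. Upper-quartile scaling gave 801 higher and 860 lower, and leaving the 20 most abundant isotigs out of the total gave 1075 and 645, so the sign of the excess depends on scaling. The median log2 ratio over all isotigs, 0.16, was 0 with median-ratio scaling, 0.092 with upper-quartile scaling, 0.24 without the 20 most abundant isotigs, 0.19 and 0.14 with pseudocounts of 0.1 and 1, 0.14 with no filter, 0.15 at a mean RPKM of at least 5 and 0.068 with at least 20 reads. No named isotig reversed its direction, and other single isotigs were not checked. The scalings shifted the median log2 ratio by 0.16 or less, so a call of at least 2-fold could not have reversed. Medians near 0 changed sign with scaling or depth in the GO groups ATP synthesis coupled proton transport, DNA repair, G-protein coupled receptor signaling pathway, carbohydrate metabolic process, exopeptidase activity, glycosyl hydrolases, iron ion binding and mRNA processing. Of the values of GO groups under the alternatives, 2138 counts stayed within 1.5 times and 514 did not. Counts that were 0 under both settings are among those that stayed. For medians, 1005 stayed inside the 95% interval of the main median over isotigs and 15 did not. In the smallest groups that interval spans all members, and a median near 0 can change sign inside it, so this count is no measure of stability. No paired analysis was possible because each stage has 1 library. Depth enters through the counting intervals, while biological spread between animals cannot be measured from 1 library per stage and the crossed file names were not resolved.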

Other observations

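A set of isotigs had its best protein match in a ciliate, a single-celled organism; the list of 4 ciliate genera (Tetrahymena, Paramecium, Chilodonella and Ichthyophthirius) was written after the values were seen. There were 25 such isotigs, 19 of them kept by the filter, with 466 reads in non-aestivation, 71 during deep aestivation and 46 at arousal. Of the 25, 10 had reads in non-aestivation alone, 314 in all, and 288 of these belonged to the beta-tubulin isotig18713. The 9 with a named match had 317, 8 and 2 reads. Among these, elongation factor 1 alpha (isotig20617) had 9 reads in non-aestivation and 0 in both other libraries, and an Hsp90 (isotig26202) had 6 and 0. The organism these transcripts came from was not tested.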
